A study of Mus musculus with 6 samples.

Results

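The regions described here are the long inter-LAD stretches of the mouse autosomes, which are runs of 500 kb or more that lay outside the lamina-associated domains (LADs) of all 3 deposited maps. They were selected on the 3 LAD lists, which rest on the same signal that is described below, so the low signal of these stretches follows from the selection and is given as a description with no test. On chromosomes 1 to 19, between the first and the last fragment of each chromosome, 1543 stretches with 741 Mb lay outside every LAD. Of these, 414 stretches with 543 Mb and 1307124 fragments were 500 kb or longer. They made up 26.8% of the number and 73.3% of the length of the sequence outside LADs, and 22.5% of the autosomal span of 2415 Mb.

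The nuclear lamina is a mesh of A-type and B-type lamins under the inner nuclear membrane. Alternative splicing of Lmna transcripts gives lamin A and lamin C, whereas lamin B1 comes from a gene of its own, Lmnb1. Chromatin that touches the lamina lies in LADs, which as a rule are gene-poor, late-replicating and weakly transcribed, whereas the inter-LAD sequence between them is known to be richer in genes and active chromatin and to lie more towards the nuclear interior. In DamID, Dam methylates GATC sites near the protein to which it is fused, and freely diffusing Dam reports how accessible the same sites are. With both libraries on a common scale, a negative log2 ratio means that free Dam methylated a site relatively more often than the lamin fusion. The ratio is a relative measure of contact, not a distance from the lamina. The deposited values hold a constant for each map and the ratio of library depths is unknown, so their sign alone does not show this.

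The cells were mouse embryonic fibroblasts of the C57BL/6 strain with a genotype given as wild type, treated with shRNA against LmnA, LmnC or LmnB1; that LmnB1 was a target is stated in the description labels, whereas the treatment protocol names the other 2 targets only. Each of the 3 maps set 1 library of a Dam fusion against 1 Dam-only library from cells with the same shRNA, 6 libraries in all. Dam-LmnB1 was the fusion in the LmnA and LmnC RNAi maps and Dam-LmnA in the LmnB1 RNAi map, so the RNAi target and the fusion protein cannot be told apart when the LmnB1 RNAi map is set against the other maps. Each group holds 1 library, hence no comparison between maps has a replicate check, no p-value is given, and no library of cells without these shRNAs was analysed here; neither lamin depletion nor the fibroblast label could be checked against RNA or protein.

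The deposited value is a log2 ratio of fusion over Dam-only reads for each GATC fragment in mm9 coordinates. A very small number (1e-05) was added to both read counts before the ratio, and a constant was added for each map. A fragment read in 1 library alone therefore has a size above 12 on the log2 scale, and such single-library fragments weigh heavily in any mean. In the long stretches 23.2% of fragments were of this kind in the LmnA RNAi map, 27.2% in the LmnC RNAi map and 24.6% in the LmnB1 RNAi map. Levels are length-weighted means over the fragments of a stretch, and the main ones are also given without the single-library fragments. Total library depth is unknown, because fragments read in both libraries give only the ratio of their reads.

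The length of the stretches ranged over more than 10-fold. The median was 964 kb (quartiles 676 and 1592 kb) and the mean 1.31 Mb. Of the 414 stretches, 199 reached 1 Mb and held 392 Mb, which was 72.1% of the total length. A length of 2 Mb was reached by 72 stretches with 217 Mb, and 5 Mb by 6 stretches. The 500 kb limit fell in a part of the range where lengths ran on without a gap. Just inside the limit were chr9:45612616-46112972 (500.4 kb), chr11:98510230-99011288 (501.1 kb) and chr14:60865366-61368203 (502.8 kb). Just outside were chr6:120731966-121228142 (496.2 kb), chr4:151318930-151815658 (496.7 kb) and chr15:97488781-97985516 (496.7 kb). The LmnA RNAi levels of these stretches were -3.19, -2.55 and -0.71 inside and -2.02, -3.03 and -1.66 outside. Those of LmnC RNAi were -3.98, -3.42 and -2.13 inside and -2.97, -3.43 and -2.53 outside, and those of LmnB1 RNAi -2.91, -2.51 and -1.35 inside and -2.32, -2.17 and -1.97 outside. The 3 stretches inside the limit thus held both the lowest and the highest value of the 6 in each map.

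Every autosome carried long stretches, from 14 on chromosome 19 to 30 on chromosome 1, but their share of the sequence was uneven. Chromosome 11 had the highest share of its span in long stretches, 36.3% (25 stretches, 43.1 Mb), and chromosome 12 the lowest, 16.3% (17 stretches, 19.3 Mb). The median over the 19 chromosomes was 22.8%, and the mean was 23.0% ± 4.61 (SD over chromosomes). The next highest after chromosome 11 were chromosome 19 with 29.0% and chromosome 17 with 27.3%. The longest stretch of a chromosome ranged from 1.86 Mb on chromosome 13 to 6.41 Mb on chromosome 2. By the median level of their stretches the chromosomes differed little, with medians of -2.43 to -1.72 (LmnA RNAi), -3.38 to -2.94 (LmnC RNAi) and -2.39 to -1.87 (LmnB1 RNAi). Chromosome 18 had the highest median in the LmnC and LmnB1 RNAi maps, and chromosome 3 in the LmnA RNAi map.

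**Figure D1:**
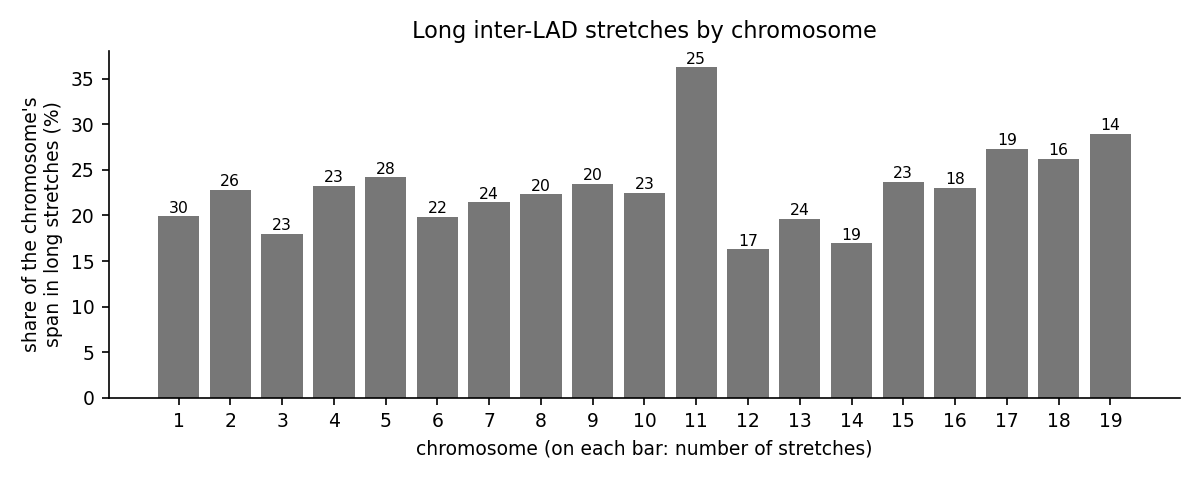
Bars give the percent of each autosome's span, from its first to its last fragment, that lay in long inter-LAD stretches, and the number on top of a bar counts its stretches. Chromosome 11 stands highest with 36.3%, chromosome 12 lowest with 16.3%.

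Long stretches were spread unevenly between the ends of the chromosomes. They took 14.4% of the first 10 Mb of the 19 autosomes, the end next to the centromere in these telocentric chromosomes, against 26.5% of the last 10 Mb and 22.5% of the whole span. With windows of 5 Mb the shares were 21.5% and 27.5%. Only 2 stretches began at the first fragment of a chromosome, one of 3.60 Mb on chromosome 11 and one of 0.570 Mb on chromosome 17, and none ended at the last fragment.

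Between neighbouring long stretches lay 395 separators with a median length of 2158 kb (quartiles 927 and 5887 kb). In 332 of them all 3 maps had LADs, in 23 LADs of 2 maps, and in 40 LADs of 1 map alone, so the list of 1 map kept the pair of stretches apart at these 40. LADs of the LmnA RNAi map were alone in 32 of the 40, those of the LmnB1 RNAi map in 5 and those of the LmnC RNAi map in 3. These separators were short, with a median of 185 kb, and 28 of all 395 separators were under 200 kb. The shortest, chr4:64637392-64738758, was a LAD of 101 kb in the LmnA RNAi map only.

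The 5 longest stretches show what such a region looks like in the 3 maps. The longest, chr2:29384095-35794084 (6.41 Mb, 15364 fragments), had a level of -2.34 ± 0.04 in the LmnA RNAi map, -2.97 ± 0.05 in the LmnC RNAi map and -2.22 ± 0.04 in the LmnB1 RNAi map (± SE over fragments, which covers the spread between fragments of 1 map and not that between cultures). On chromosome 11, chr11:74328449-80626577 (6.30 Mb) had -2.61, -3.39 and -2.39 in the same order of maps, and chr4:131726890-138022143 (6.30 Mb) had -2.62, -3.17 and -2.28. The remaining pair, chr8:121902965-128190864 (6.29 Mb) and chr9:61705735-67483471 (5.78 Mb), had -2.25, -2.86 and -2.12, and -2.06, -3.07 and -2.27. In all 5 the LmnC RNAi map was the lowest, and the LmnA and LmnB1 RNAi maps were closer together. Without single-library fragments the 5 stretches lay between -1.48 and -1.29 in the LmnA RNAi map, -1.52 and -1.34 in the LmnC RNAi map and -1.15 and -1.08 in the LmnB1 RNAi map, so that the LmnA RNAi and LmnC RNAi levels were then close and the LmnB1 RNAi level was the highest.

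Over the 414 stretches the mean level was -2.06 ± 0.66 with LmnA RNAi (SD over stretches, median -2.08), -3.13 ± 0.52 with LmnC RNAi (median -3.18) and -2.15 ± 0.44 with LmnB1 RNAi (median -2.20). The range was -3.55 to 0.0025, -4.85 to -1.15 and -3.87 to -0.41. The median SE of a stretch was 0.10, 0.12 and 0.10, well below the spread between stretches. A single stretch was above 0 in the LmnA RNAi map and none in the others, while 28, 0 and 7 stretches were above -1 and 20, 262 and 7 were below -3. Without single-library fragments the means moved to -1.29, -1.52 and -1.13.

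For scale, the 353 stretches of 1 Mb or more that lay inside LADs of all 3 maps, called core LAD stretches here, had mean levels of 2.43, 1.72 and 1.93 in the maps of LmnA, LmnC and LmnB1 RNAi. The core mean exceeded the long inter-LAD mean by 4.49, 4.85 and 4.08, and by 2.34, 2.33 and 1.88 without single-library fragments. No long stretch reached the level of the lowest core stretch in any map, under any of these settings; this separation follows from the way both classes were chosen. The 700 shorter inter-LAD stretches of 100 to 500 kb had medians of -1.75, -3.05 and -2.12, higher than those of the long stretches by 0.34, 0.13 and 0.08. Without single-library fragments the medians of long and shorter stretches differed by -0.13 with LmnA RNAi, 0.0027 with LmnC RNAi and 0.0055 with LmnB1 RNAi (long minus shorter), so a lower level in the longer class was left in the LmnA RNAi map only.

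**Figure D2:**
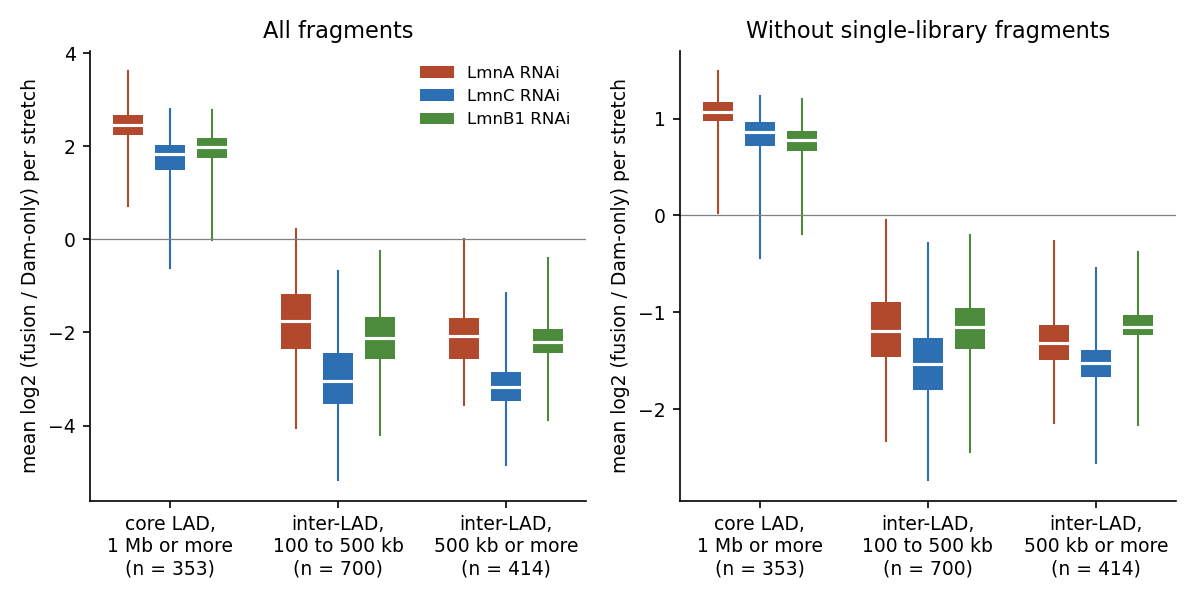
Mean log2 ratio per stretch in 3 classes of autosomal sequence for the 3 maps, with all fragments on the left and without single-library fragments on the right; boxes span the quartiles, white lines are medians and thin lines run from the lowest to the highest stretch. The long inter-LAD medians of -2.08, -3.18 and -2.20 lie close to those of the shorter inter-LAD stretches and below every core LAD stretch, and the gap between LmnC RNAi and the other maps narrows on the right.

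Level and length were only loosely related among the members. Stretches of 0.5 to 1 Mb (n = 215) had medians of -2.001, -3.11 and -2.16 in the same order of maps, and those of 2 Mb or more (n = 72) had -2.35, -3.24 and -2.27. Pearson's r of level and length was -0.18, -0.09 and -0.08 over the 414 stretches, which are neighbours on 19 chromosomes in the same libraries. Without single-library fragments r was -0.14, 0.01 and -0.01. The medians were then -1.30, -1.55 and -1.16 in the shortest class and -1.38, -1.52 and -1.15 in the longest. The spread was narrower among longer stretches: the quartiles of LmnC RNAi levels were -3.52 and -2.73 in the shortest class and -3.44 and -3.07 in the longest. The level was as loosely related to the surroundings. Within 1 Mb on either side of a stretch, a median of 75.7%, 59.2% and 58.6% of the sequence lay in LADs of the LmnA, LmnC and LmnB1 RNAi maps, and r of the level with the LAD share of its flanks was 0.04, -0.03 and -0.04.

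The lowest stretch was the same in all 3 maps. It was chr16:23980788-25068236 (1.09 Mb, 2525 fragments), with levels of -3.55 ± 0.10 in the LmnA RNAi map, -4.85 ± 0.12 in the LmnC RNAi map and -3.87 ± 0.10 in the LmnB1 RNAi map (± SE of the mean over fragments); these were -2.14, -2.56 and -2.16 without single-library fragments. On the same chromosome, chr16:42241394-42794901 (0.554 Mb, 1332 fragments) was the highest in the maps of LmnA RNAi (0.0025 ± 0.13) and LmnB1 RNAi (-0.41 ± 0.12), and it stood at -1.18 ± 0.13 in the LmnC RNAi map. The highest of the LmnC RNAi map was chr15:40360239-40864489 (0.504 Mb), with -1.15 there against -0.47 (LmnA RNAi) and -0.83 (LmnB1 RNAi). These highest stretches of the 3 maps were close to the lower limit of length. In the highest stretch 29.96% of fragments had the constant alone in the LmnA RNAi map, meaning no reads or equal reads in both libraries, against 31.5% over all long stretches.

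A stretch that was low in 1 map was as a rule low in the others. Over the 414 stretches Pearson's r of the levels was 0.80 between LmnA and LmnC RNAi, 0.83 between LmnA and LmnB1 RNAi and 0.90 between LmnB1 and LmnC RNAi. The same coefficients were 0.73, 0.81 and 0.93 without single-library fragments. These values describe stretches that share the libraries and the fragments, and no map shares a library with another.

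**Figure D3:**
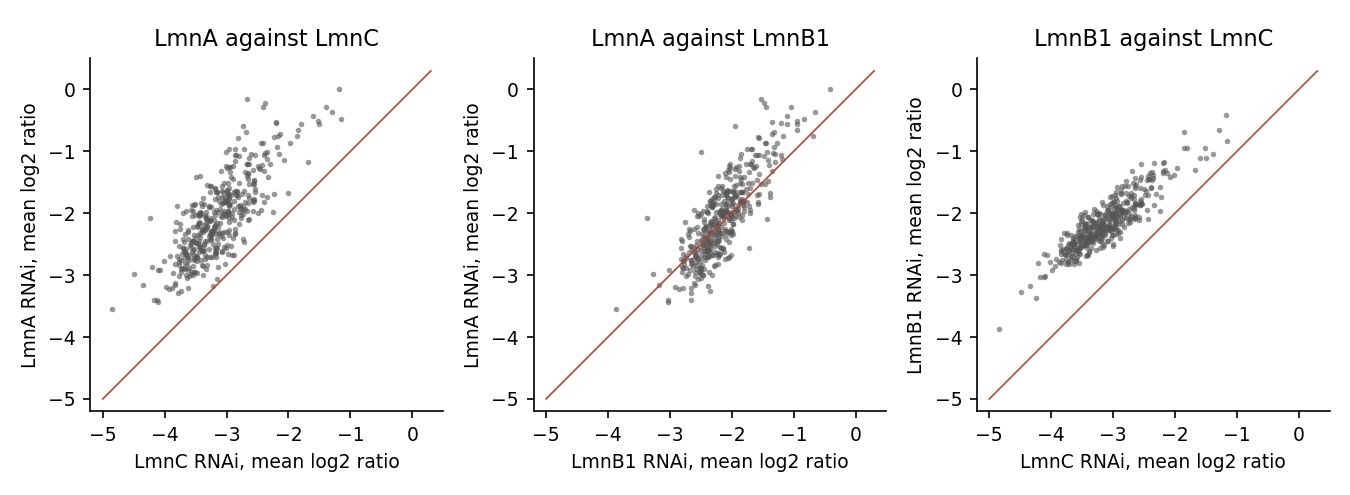
Each point is 1 of the 414 long stretches, placed by its mean log2 ratio in a pair of maps; the line marks equal values. All points lie above the line where LmnA RNAi or LmnB1 RNAi is set against LmnC RNAi, and they straddle it where LmnA RNAi is set against LmnB1 RNAi.

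The LmnC RNAi map was the lowest in all 414 stretches, and this order depended on the scale. As deposited, LmnA RNAi exceeded LmnC RNAi by a median of 1.07, and by more than 0.5 in 387 of 414 stretches (93.5%), with 0 lower by more than 0.5. Over all 23944 autosomal 100 kb bins the same step was passed by 75.8% upwards and 0.802% downwards. Cut into such bins, the long stretches gave 77.8% upwards over 5016 bins, close to the 75.8% of all bins. LmnB1 RNAi exceeded LmnC RNAi by a median of 0.98, and by more than 0.5 in 402 stretches, with 0 lower, against 50.5% upwards and 4.69% downwards over all bins and 82.6% upwards over the bins of the long stretches. LmnA RNAi and LmnB1 RNAi differed by a median of 0.06, with 60 stretches higher and 23 lower by more than 0.5 after LmnA RNAi. For this pair 48.7% of all bins were higher and 8.24% lower, and of the bins in long stretches 22.3% were higher and 20.99% lower.

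Each map has its own offset, since the median 100 kb bin stood at 1.21, 0.06 and 0.53 in the LmnA, LmnC and LmnB1 RNAi maps. Relative to these medians the long stretches of the LmnA and LmnC RNAi maps differed by a median of -0.08, with 35 higher and 62 lower by more than 0.5 after LmnA RNAi, where 15.6% of all bins were higher and 32.5% lower. LmnA RNAi then lay below LmnB1 RNAi by a median difference of -0.62, with 5 stretches higher and 252 lower, against 13.7% and 33.4% of all bins. LmnB1 RNAi remained above LmnC RNAi, by a median of 0.51, with 222 stretches higher and 0 lower, against 24.3% and 19.6% of all bins. Of the bins in long stretches, 16.5%, 4.01% and 51.9% were higher for these 3 pairs in turn, and 29.2%, 60.8% and 2.41% lower. The deposited scale therefore placed LmnA RNAi above LmnC RNAi in these stretches and the centred scale did not, while LmnB1 RNAi stood above LmnC RNAi on both.

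Leaving out the single-library fragments, on the uncentred scale, brought the median difference to 0.23 for LmnA minus LmnC RNAi and 0.40 for LmnB1 minus LmnC RNAi. For LmnA minus LmnB1 RNAi it turned from 0.06 to -0.17. More than 0.5 higher were 39 (LmnA minus LmnC RNAi), 0 (LmnA minus LmnB1 RNAi) and 48 stretches (LmnB1 minus LmnC RNAi). Lower by more than 0.5 were 0, 5 and 0. In the same order of pairs, 14.5%, 1.30% and 25.7% of the bins in long stretches were higher, against 22.4%, 16.7% and 10.4% of all bins. Lower were 0.14%, 9.77% and 0% of the bins in long stretches, against 0.075%, 2.56% and 0.60% of all bins. The LmnC RNAi map was the lowest in 360 of 414 stretches and the LmnA RNAi map in the other 54, and LmnB1 RNAi was the highest in 341. Among the 117758 fragments of 1 kb or longer, of which 0.334%, 0.913% and 0.270% were read in a single library after LmnA, LmnC and LmnB1 RNAi, the long stretches had means of -1.26, -1.71 and -1.01 in the same order. The same long fragments in core LAD stretches had 0.99, 0.46 and 0.70, so that the step was 2.25, 2.17 and 1.71.

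Single stretches departed from the usual difference. The largest LmnA minus LmnC RNAi difference was 2.52 at chr19:28236982-28886349 (0.649 Mb), where the levels were -0.16 (LmnA RNAi), -2.68 (LmnC RNAi) and -1.52 (LmnB1 RNAi), and the difference was 1.04 without single-library fragments. The smallest was 0.05 at chr10:78988890-81116963 (2.13 Mb), with -3.17, -3.22 and -2.39 in that order, and it was -0.22 without single-library fragments. LmnA RNAi exceeded LmnB1 RNAi most at chr9:49294154-49988429, by 1.49 (-1.003 against -2.49). It fell below LmnB1 RNAi most at chr7:19423948-20542243, with a difference of -0.91 (-3.26 against -2.35). The difference of LmnB1 minus LmnC RNAi was steadier, from 0.29 at chr11:53511706-54128845 (-1.96 against -2.25) to 1.52 at chr1:87941387-88576365 (-2.01 against -3.52). Its SD over stretches was 0.23, against 0.40 for LmnA minus LmnC RNAi and 0.38 for LmnA minus LmnB1 RNAi.

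The reads behind these ratios were counted in the single-library fragments, where whole reads can be recovered. In the long stretches, fragments read only in the Dam-only library outnumbered those read only in the fusion library 2.59-fold in the LmnA RNAi map (16.7% against 6.46% of fragments), 6.12-fold in the LmnC RNAi map (23.4% against 3.82%) and 3.82-fold in the LmnB1 RNAi map (19.5% against 5.11%). The fusion library supplied 14.5%, 4.63% and 9.56% of the reads in such fragments, against 92.0%, 84.3% and 87.7% in core LAD stretches. The median was 1 read in a fusion-only and 2 reads in a Dam-only fragment of the long stretches, so each such value near the ends of the scale rests on very few reads. Single-library reads were frequent in short fragments: of those of 100 to 300 bp in the long stretches, 12.7% were read in the fusion library alone and 30.9% in the Dam-only library alone with LmnA RNAi. Fragments of this size had means of -4.02, -6.60 and -5.40 with LmnA, LmnC and LmnB1 RNAi, and without the single-library ones -0.75, -0.42 and -0.73, so that LmnC RNAi was the lowest in the first case and the highest in the second. Fragments of 1 kb or longer had -1.23, -1.58 and -0.99 without the single-library ones, with LmnC RNAi lowest and LmnB1 RNAi highest either way. PCR reads without molecular identifiers are not independent molecules, and the ratio of the 2 library depths, which is not known, enters each of these counts.

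GATC sites were sparser in the long stretches than in core LADs. There were 2.41 fragments per kb in the long stretches, 2.36 in inter-LAD stretches of 100 to 500 kb, 2.57 in core LAD stretches and 2.47 over all autosomal sequence, and the median fragment was 280 bp in the long stretches and 245 bp in core LADs. The density was lower in long stretches than in core LADs on 19 of 19 chromosomes. Among the members it ran from 1.99 per kb at chr1:157618288-158618410, where fragments covered 86.0% of the stretch, to 2.72 per kb at chr8:3176368-3693858. Pearson's r of density and level was -0.17 in the LmnA RNAi map and -0.07 in each of the others; without single-library fragments it was -0.09 (LmnA RNAi), 0.16 (LmnC RNAi) and 0.08 (LmnB1 RNAi), so its sign turned in the LmnC and LmnB1 RNAi maps.

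The 414 stretches had 826 edges that bordered on a LAD. By construction an edge is the border of the LAD that reaches farthest into the gap, and this was a LAD of the LmnA RNAi map alone at 455 edges (55.1%), of the LmnB1 RNAi map alone at 202 (24.5%) and of the LmnC RNAi map alone at 148 (17.9%), with 21 shared. A LAD border of the LmnA RNAi map lay within 10 kb at 619 edges, one of the LmnB1 RNAi map at 352 and one of the LmnC RNAi map at 318, and all 3 maps had a border within 10 kb at 145 edges (17.6%). Within 50 kb all 3 maps had one at 360 edges (43.6%). The median distance from the edge to the nearest LAD of the map was 0 kb for LmnA RNAi, 25.2 kb for LmnC RNAi and 21.2 kb for LmnB1 RNAi. At 27, 164 and 164 edges that LAD was 500 kb away or farther.

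The signal fell steeply at the edges. Within the 200 kb outside that were profiled, the bin centred 105 kb away had 1.15, 0.11 and 0.51 with LmnA, LmnC and LmnB1 RNAi, below the core LAD means, and the signal declined from there towards the border. In bins of 10 kb averaged over edges, it went from 0.31 just outside to -2.12 just inside with LmnA RNAi, from -1.05 to -2.998 with LmnC RNAi and from -0.32 to -2.12 with LmnB1 RNAi, and stayed flat from there to 250 kb inside. The mean of the 100 kb outside exceeded that of the 100 kb inside by 2.78 ± 1.24 (SD over 826 edges) with LmnA RNAi, 2.78 ± 1.36 with LmnC RNAi and 2.30 ± 1.15 with LmnB1 RNAi. The outside was higher at 823, 816 and 818 of 826 edges. Since borders were placed where the signal changes, a step is part of the definition. At the 455 edges set by LmnA RNAi alone it was 2.53 ± 1.38 in the LmnC RNAi map (448 edges higher outside) and 2.04 ± 1.18 in the LmnB1 RNAi map (447 edges); the inside was selected to lie outside the LADs of these maps too, so these values are a description as well. At the 145 edges with all borders within 10 kb the steps were 3.80, 4.06 and 3.35.

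**Figure D4:**
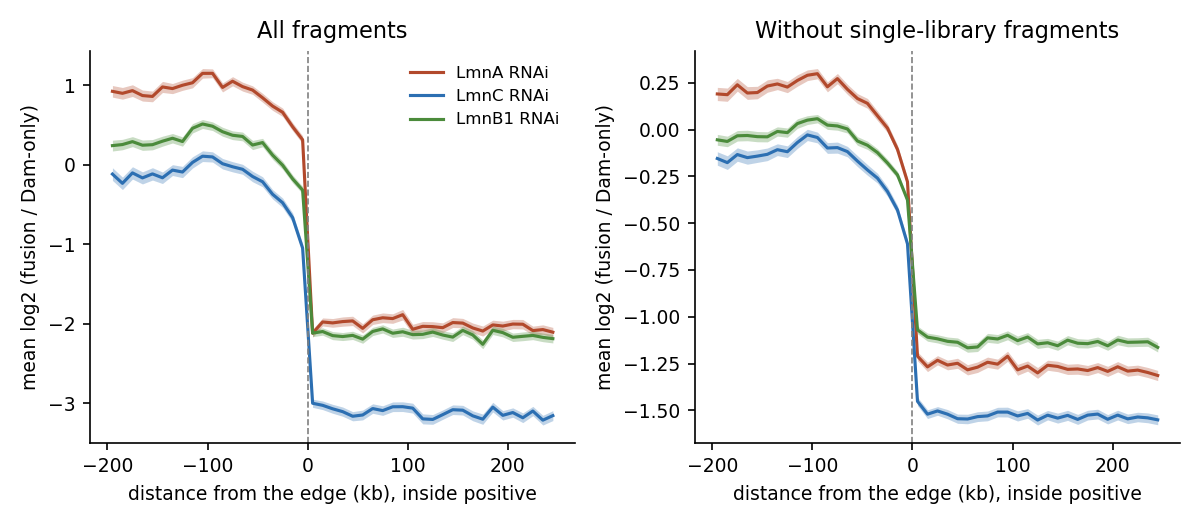
Mean log2 ratio in 10 kb bins by distance from the edges of long stretches, with positive distances inside the stretch; bands are ± SE over edges, all fragments are on the left and single-library fragments are left out on the right. All 3 maps decline over the last 100 kb outside, drop between the bins on both sides of the edge and run flat inside, with LmnC RNAi from -1.05 to -2.998 on the left, and inside the LmnA RNAi line lies at or above the LmnB1 RNAi line over the first 100 kb on the left and below it on the right.

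Deeper in, the LmnA RNAi level was lower with distance from the edge. Over all stretches its mean went from -1.98 in windows within 100 kb of an edge to -2.31 in windows 1 Mb or more from one, the latter from 67 stretches only. The same bands had -3.08 and -3.17 with LmnC RNAi and -2.12 and -2.21 with LmnB1 RNAi. In the 72 stretches of 2 Mb or more, 50 kb windows within 250 kb of an edge had means of -2.14 (LmnA RNAi), -3.19 (LmnC RNAi) and -2.20 (LmnB1 RNAi), and windows 750 kb or more from an edge had -2.32, -3.21 and -2.23. Without single-library fragments the windows near an edge had -1.31, -1.54 and -1.14, and those farther in had -1.38, -1.50 and -1.13. A lower level farther in was then left in the LmnA RNAi map only. Stretch by stretch, with all fragments, edge minus centre was 0.17 ± 0.64 (SD, n = 72 stretches), 0.05 ± 0.54 and 0.02 ± 0.49, with the edge higher in 43, 41 and 38 of 72.

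Inside the stretches the signal was far from even, and its course was shared by the maps. The 414 stretches held 10639 windows of 50 kb, whose values varied about the mean of their stretch with an SD of 1.03 (LmnA RNAi), 1.01 (LmnC RNAi) and 0.90 (LmnB1 RNAi). Odd-numbered against even-numbered fragments of the same window gave an SD of 0.43, 0.48 and 0.42, less than the variation between windows in each map. The core LAD windows varied less, with SDs of 0.73, 0.78 and 0.71. After removal of the stretch means, Pearson's r over the windows was 0.75 between LmnA and LmnC RNAi, 0.73 between LmnA and LmnB1 RNAi and 0.77 between LmnB1 and LmnC RNAi, and 0.86, 0.85 and 0.91 without single-library fragments. Within single stretches the median r was 0.75, 0.74 and 0.78, and it was above 0 in all 414 for each pair. When odd-numbered fragments of 1 map were set against even-numbered fragments of another, r was 0.59, 0.59 and 0.58, against 0.71, 0.63 and 0.65 between odd and even fragments of the LmnA, LmnC and LmnB1 RNAi maps themselves.

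Some windows were extreme in all maps at once, and the windows named here were picked for that. In all 3 maps 206 windows (1.94%) in 125 stretches were below -4, and 232 windows (2.18%) in 127 stretches were above -1. The 3 lowest windows, ranked by the map with the highest value, were chr12:81297945-81347945 with -6.17 (LmnA RNAi), -5.91 (LmnC RNAi) and -5.53 (LmnB1 RNAi), chr6:34595374-34645374 with -5.53, -6.80 and -5.47, and chr5:77783335-77833335 with -6.56, -5.70 and -5.41. Their SEs over fragments were 0.57 to 0.69. The window on chromosome 6 was the middle of a trough of 3 windows, with -5.51, -6.92 and -5.40 to its left and -5.83, -6.07 and -5.07 to its right. The window on chromosome 5 stood next to an abrupt rise, since the following 50 kb had 0.18, -1.10 and -0.47. Without single-library fragments the 3 lowest windows had values from -3.27 to -2.72.

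At the other extreme, 397 windows were above 0 in the LmnA RNAi map (3.73%), 30 in the LmnC RNAi map (0.282%) and 142 in the LmnB1 RNAi map (1.33%), in sequence that no LAD list includes. Of these, 346 windows were above 0 in 1 map only and 80 in 2 maps. These counts depend on the offset of each map. With each map centred on its median 100 kb bin, 24 (LmnA RNAi), 25 (LmnC RNAi) and 39 windows (LmnB1 RNAi) were above 0. As deposited, 21 windows in 18 stretches on 11 chromosomes were above 0 in all 3 maps together, and 6 of them lay within 100 kb of an edge. Of the 21, 9 were also above 0 in all maps without single-library fragments. The highest 3 by their lowest map were chr11:58067180-58117180 with 1.96 ± 0.47, 1.94 ± 0.53 and 2.40 ± 0.50 (SE over 150 fragments), chr7:112984715-113034715 with 2.24, 1.59 and 2.15, and chr8:74573331-74623331 with 2.43, 2.28 and 1.55. These values are near the mean levels of core LAD stretches. To the left of the window on chromosome 11 the values were -1.14, -2.12 and -1.06, and to the right of that on chromosome 8 they were -1.43, -1.49 and -1.21. The window on chromosome 7 was followed by 50 kb with -0.48, 1.57 and 1.06, and 91.4% of its stretch was covered by fragments. Without single-library fragments these 3 windows had 0.80, 0.84 and 0.42 on chromosome 11, 0.64, 0.81 and 0.44 on chromosome 7, and 0.91, 0.88 and 0.41 on chromosome 8.

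Values also ranged widely within single stretches. In the longest stretch, on chromosome 2, the 128 windows ranged from -4.63 to 1.55 (LmnA RNAi), from -4.74 to -0.31 (LmnC RNAi) and from -4.03 to -0.28 (LmnB1 RNAi). The highest LmnA RNAi window began 4750 kb from the left edge, where the LmnC and LmnB1 RNAi maps had -1.41 and -0.62. In this stretch 4 windows of the LmnA RNAi map alone were above 0, with 0.06, 0.91, 0.94 and 1.55. Without single-library fragments they had -0.24, -0.06, 0.38 and 0.46. The median 100 kb bin of this map stood at 1.21 with all fragments. Over the windows of the stretch r was 0.66 for LmnA with LmnC, 0.71 for LmnA with LmnB1 and 0.69 for LmnB1 with LmnC RNAi. The stretch of 2.09 Mb on chromosome 6 that holds the trough also holds a window above 0 in all maps, chr6:34045374-34095374. This window had 0.40 ± 0.38, 0.30 ± 0.45 and 0.06 ± 0.36 (SE over fragments), and 0.05, -0.31 and 0.05 without single-library fragments. The values of the stretch thus passed from near 0 to below -5 over about 500 kb. Its 41 windows had r of 0.83, 0.82 and 0.89 for LmnA with LmnC, LmnA with LmnB1 and LmnB1 with LmnC RNAi.

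**Figure D5:**
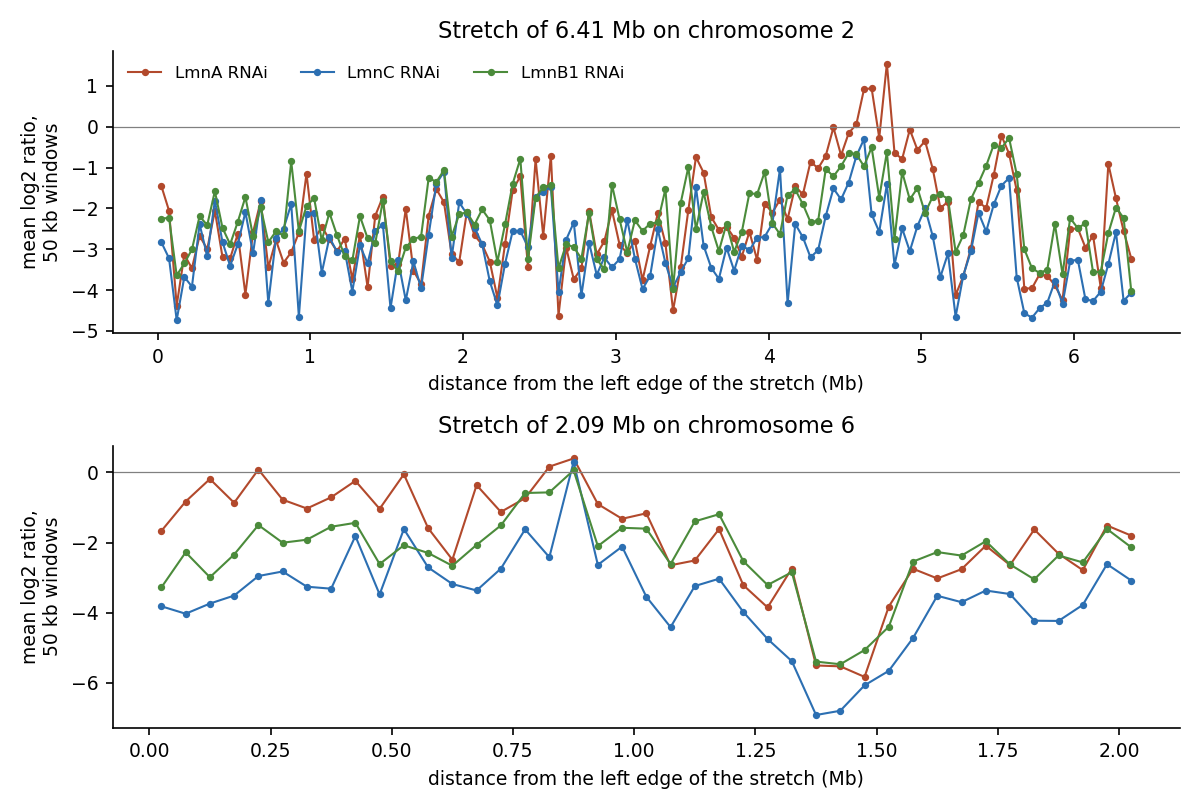
Mean log2 ratio of 50 kb windows along the longest stretch (chromosome 2, 128 windows, upper panel) and along the 2.09 Mb stretch on chromosome 6 (41 windows, lower panel) by distance from the left edge, 1 line per map. The 3 lines follow each other less closely in the upper panel (r of 0.66 to 0.71) than in the lower panel (0.82 to 0.89). The upper panel has a peak above 0 of the LmnA RNAi map alone at 4750 kb, with 1.55 where the median 100 kb bin of this map stood at 1.21. The lower panel has a trough of -6.92 in the LmnC RNAi map.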

How the data were processed

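Per the submitters' processing notes, reads were aligned with Bowtie to mm9; no source used here names the read filters or how LADs were called. The deposited signal is a log2 ratio of fusion to Dam-only reads per GATC fragment, with 1e-05 added to both counts and a constant per map (-0.34, 0.21 and -0.15 after LmnA, LmnC and LmnB1 RNAi), as read from the steps of the values: single-library values gave whole reads within 0.02 in 100% of fragments up to 100 reads. The deposited LAD lists are intervals without values, in the files' own coordinates. From these, stretches outside every LAD were cut, and length-weighted means over fragments, 50 kb windows (at least 50% covered) and 100 kb bins were computed with Python 3.11.15, numpy 2.4.6 and pandas 2.3.3; the steps were tested on simulated data. With 1 library per group, no test was run. Gene and sequence tables of another build were not used, so no genes are named.

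The members, their limits and the rules for naming were chosen with earlier results of these data known. Named were the 5 longest stretches, those nearest 500 kb, the lowest and highest in each map, in each difference between maps and in fragments per kb, and the 3 highest and lowest windows; the stretch on chromosome 6 was shown because it holds 1 of these. Alternatives left out or recomputed single-library fragments, centred the maps, left out a LAD list, and changed steps, weights, windows and limits of length. Odd and even fragments and the settings of the core step were added after the data were seen.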

Additional observations from a re-analysis of the deposited data

How the results depend on the processing

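Of 98 alternative values, 46 moved by less than the spread used for comparison, 46 moved further and 6 changed sign; the cause was not tested. A minimum length of 1 Mb left 199 stretches, by construction. Without the LmnA RNAi list there were 491 stretches with 713 Mb. There were 426 with 561 Mb without the LmnC RNAi list, and 424 with 559 Mb without the LmnB1 RNAi list. Mean levels after LmnA, LmnC and LmnB1 RNAi were -1.29, -1.52 and -1.13 without single-library fragments and -1.29, -1.54 and -1.17 when 1 read was added to both libraries in these; with equal weights they were -4.18 after LmnC and -3.29 after LmnB1 RNAi. The step to core LADs was 2.34, 2.33 and 1.88 without these fragments and 2.36, 2.39 and 1.95 with 1 read added.

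The differences between maps moved with both the scale and the single-library fragments. For LmnA minus LmnC RNAi the median turned from 1.07 to -0.077 when centred and to -0.19 when centred without single-library fragments. It was 0.23 without these fragments on the uncentred scale and 0.24 with 1 read added. In the same order 35, 1, 39 and 43 stretches were higher by more than 0.5, and 62, 23, 0 and 0 lower. As deposited, 227 were higher by more than 1, a step passed by 49.5% of the bins in long stretches and 45.9% of all bins. For LmnA minus LmnB1 RNAi the median turned from 0.06 to -0.62, -0.46, -0.17 and -0.15 in the same order. Higher by more than 0.5 were 5, 0, 0 and 1 stretches, and lower 252, 161, 5 and 3. As deposited, 6 were higher by more than 1 and 0 lower. Of the bins in long stretches 6.64% were higher by this step and 5.08% lower, against 20.8% and 1.67% of all bins. For LmnB1 minus LmnC RNAi the median was 0.51, 0.26, 0.40 and 0.38. Higher by more than 0.5 were 222, 0, 48 and 32 stretches, and lower 0 in each setting. As deposited, 187 were higher by more than 1, a step passed by 49.3% of the bins in long stretches and 22.7% of all bins. Centred without single-library fragments, 2.71%, 2.27% and 2.80% of all 100 kb bins were higher by more than 0.5 for the 3 pairs, and 7.68%, 15.2% and 3.69% lower. Of the bins in long stretches, 0.86%, 0.06% and 7.26% were higher, and 16.5%, 49.96% and 0% lower. With 1 read added, uncentred, 22.1%, 15.7% and 8.82% of all bins were higher, and 0.054%, 2.10% and 0.69% lower. The bins in long stretches were then higher in 14.7%, 1.52% and 20.3%, and lower in 0.12%, 8.11% and 0%.

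Borders of all maps lay within 25 kb at 257 edges and within 50 kb at 360, and a LmnC RNAi border within 50 kb at 486. Between odd and even fragments r was 0.591 for LmnA and LmnC RNAi and 0.585 for LmnB1 and LmnC RNAi; for the latter pair it was 0.905 without single-library fragments and 0.915 with 1 read added. Windows above 0 in all maps numbered 10 without these fragments, 7 centred and 133 at 20 kb. No paired analysis was possible because each group holds 1 library. Library depth is unknown, and single-library values rest on a median of 1 or 2 reads.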
